A study of Mus musculus with 4 samples.

Results

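The 10 genes described here, Fn1, Postn, Tnc, Spp1, Vcan, Thbs1, Sparc, Cyr61, Ctgf and Cd44, encode matrix and matricellular proteins, and a receptor for matrix, that have been linked to metastatic niches. They were taken by symbol from the lists of FPKM values (fragments scaled to transcript length and to library size), and all 10 were found among 21499 gene symbols. The libraries come from lungs of mice lacking lactoferrin (Lf-/-, the gene Ltf deleted) and of wild-type (WT) mice, 2 mice of each genotype with 1 library each. Both genotypes are labelled strain C57B/L6 and male, and both received 200000 B16-F10 melanoma cells by tail vein at 8 weeks of age. The lungs were collected 3 weeks later from groups of 10 mice, as tissue next to the metastases with the tumour itself left out according to the labels. Neither group was free of tumour, so the comparison is of Lf-/- with WT within tumour-bearing lungs. The labels do not say how the Ltf allele was made.

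Matricellular proteins sit in the extracellular matrix and signal to cells, mostly through integrins, more than they bear load. In the lung they are made by fibroblasts, smooth muscle, endothelium and macrophages, are low in quiet tissue and come up in repair, fibrosis and around tumour cells. Fibronectin (Fn1), periostin (Postn), tenascin C (Tnc) and versican (Vcan) have been described as parts of the matrix that lets disseminated tumour cells settle, osteopontin (Spp1) and hyaluronan are ligands of CD44, and Cyr61 and Ctgf are the founding CCN proteins, transcribed by YAP and TAZ with TEAD factors.

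The promoters are shown for Cyr61 and Cd44, a member that lay higher and a member that lay lower in both Lf-/- mice. Each line gives the 250 bases before the RefSeq start (GRCm38.p6, minus strand for both), at chr3:145649986-145650235 for Cyr61 and chr2:102901666-102901915 for Cd44. Capitals mark matches, on either strand, to CATTCC (the TEAD core), TATAAA (the box bound by TBP), TGACGT (part of a cyclic AMP response element), GGGCGG (bound by Sp1), TGANTCA (AP-1) or the CArG box bound by serum response factor.
Cyr61: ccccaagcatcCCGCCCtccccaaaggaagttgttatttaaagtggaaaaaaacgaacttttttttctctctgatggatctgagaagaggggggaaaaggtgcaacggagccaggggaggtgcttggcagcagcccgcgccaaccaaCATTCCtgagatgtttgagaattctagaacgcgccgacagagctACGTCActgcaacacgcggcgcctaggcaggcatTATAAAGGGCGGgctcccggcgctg
Cd44: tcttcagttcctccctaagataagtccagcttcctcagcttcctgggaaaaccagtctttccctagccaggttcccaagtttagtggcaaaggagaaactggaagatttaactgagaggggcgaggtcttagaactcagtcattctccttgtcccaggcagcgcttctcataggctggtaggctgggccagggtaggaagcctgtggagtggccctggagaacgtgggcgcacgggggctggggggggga
The Cyr61 window held CATTCC from 103 to 98 bases before the start, the cyclic AMP element on the other strand from 59 to 54, and TATAAA from 25 to 20, which runs straight into GGGCGG from 19 to 14. A further Sp1 box on the other strand lay from 239 to 234. The Cd44 window held none of the 6 motifs. Among 32851 windows of the same length, 12.6% held CATTCC, 12.4% TATAAA, 6.47% TGACGT, 32.7% GGGCGG, 6.75% TGANTCA and 1.47% the CArG box. Of the 10 genes, 7 had entries in this table, with 10 windows in all, and CATTCC was found in 1 of these, that of Cyr61. A match describes letters and not binding.

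Ltf itself had 0.104 and 0.532 FPKM in Lf-/- mice 1 and 2, against 79.2 and 7.32 FPKM in WT mice 1 and 2, in the order the genotype labels give. The Y-linked gene Ddx3y had 14.5 and 12.1 FPKM in the Lf-/- mice and was listed at 0 in both WT mice, although all 4 mice are labelled male. Eif2s3y (24.2 and 21.96 FPKM in Lf-/-, 0.0426 and 0 in WT), Uty and Kdm5d were ordered likewise, so the absence of Ltf and Y-linked expression go together here and cannot be told apart. Lf-/- mouse 2 stood apart, with 167 FPKM summed over 11 alveolar macrophage markers, against 512 to 742.5 in the other libraries. Of the 167 FPKM, 98.0 came from Car4, which is also on the endothelial list. The club cell gene Scgb1a1 was listed at 0 in this mouse, against 60450 to 72940 FPKM in the other libraries. Other club cell genes were not low there, with Cyp2f2 at 1729 FPKM (1442 to 1643 elsewhere) and Scgb3a2 at 770 FPKM (583 to 929 elsewhere). Why Scgb1a1 was listed at 0 was not tested. WT mouse 2 stood apart in melanocyte genes, whose 12 markers summed to 115 FPKM, against 10.2 to 14.4 in the other libraries, although the labels say that the tissue held no tumour cells. Alveolar type 1 and type 2 markers, which define lung, were above 0 in every library. The total number of reads is not known, and from the spacing of the low FPKM values Lf-/- mouse 2 was the deepest library, at 1.33 times WT mouse 1. None of the 10 genes lies on chromosome 9, where Ltf is, or on X or Y.

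Of the 10 matricellular genes, 4 lay higher and 6 lower in Lf-/- than in WT lungs by their mean log2(FPKM + 1), and none passed an adjusted p of 0.05 in limma's moderated test across 12573 genes. Over all genes tested, 0.0239% passed (0.0159% higher and 0.00795% lower). The 2 that passed as higher were the Y-linked Eif2s3y and Ddx3y (adjusted p 0.0103 and 0.0241 by limma). At an unadjusted p under 0.05 there were 2 members, Cyr61 and Fn1, 1 in each direction, where 5.11% of all genes lay (2.55% higher and 2.56% lower; 62.2% of them higher after quantile normalization, against 49.8%). In 4 members both Lf-/- libraries lay outside both WT libraries, Cyr61 and Sparc above and Fn1 and Cd44 below. That is 40% of the members, and 36.0% of all genes tested were placed so (18.5% higher and 17.5% lower), so the members' share was near the background. With quantile normalization 63.2% of the non-overlapping genes were higher, against 51.3% without it. Only Cyr61 was also at least 2-fold apart, as were 0.143% of all genes in the higher and 0.986% in the lower direction. The median log2 difference, Lf-/- minus WT, was -0.10 over the members and -0.005 over all genes tested. In absolute size it was 0.25 over the members and 0.13 over all genes. All 10 members passed the filter of at least 1 FPKM in at least 2 libraries, Vcan through 1 library of each genotype.

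**Figure D1:**
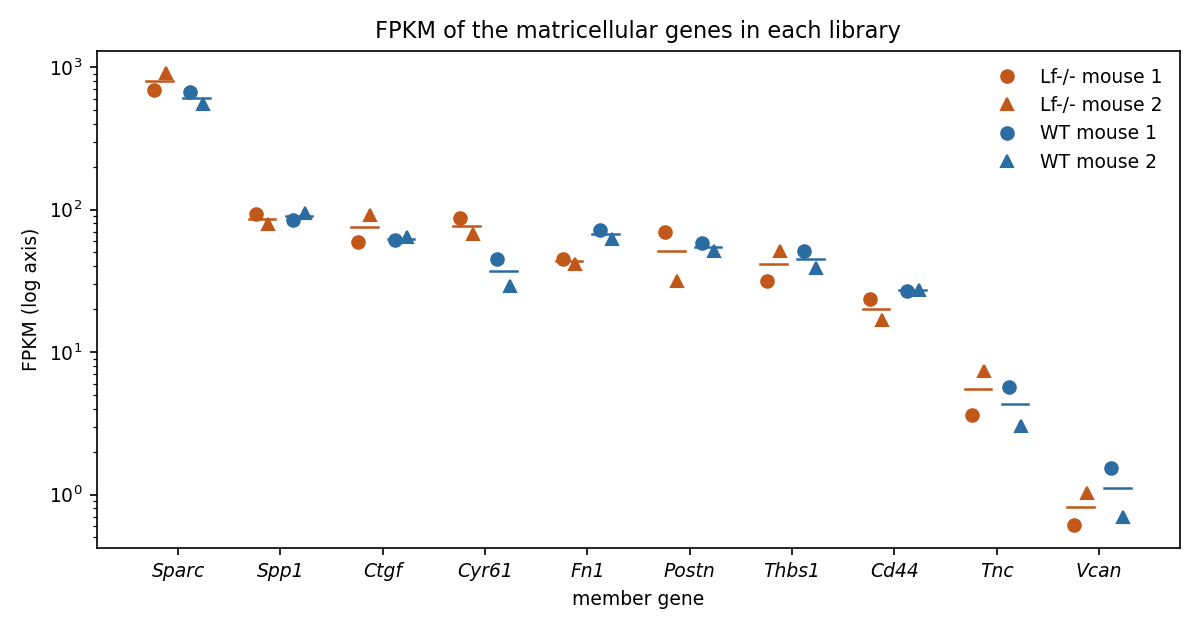
FPKM on a log axis for each gene, ordered by mean level, with 1 point per library (Lf-/- left in orange, WT right in blue, circles mouse 1, triangles mouse 2) and a line at each genotype's mean. Sparc stood above all other members in every library and Vcan below, and the points of Cyr61 and Fn1 separate by genotype in opposite directions.

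Per unit of transcript length, the order of levels ran from Sparc with a mean of 705 ± 147 FPKM to Vcan with 0.965 ± 0.42 FPKM (SD over 4 libraries). Sparc ranked between 26th and 46th of the tested genes in each library. Below it, Spp1 (87.9 ± 6.80 FPKM), Ctgf (68.9 ± 14.8), Cyr61 (57.0 ± 25.3), Fn1 (55.4 ± 14.5), Postn (52.6 ± 15.96) and Thbs1 (43.1 ± 9.68) formed a run in which each gene's range overlapped that of the next. Cyr61 exceeded Fn1 in 2 of 4 libraries, those of the Lf-/- mice. Cd44 (23.7 ± 4.87 FPKM), Tnc (4.92 ± 1.97) and Vcan followed in that order in all 4 libraries with no overlap between neighbours. Tenascin C and versican, which mark provisional and tumour-associated matrix, were thus the lowest members in these tissues. An FPKM per symbol does not separate splice forms, so the variant exons of Cd44 and the extra domains of Fn1 cannot be seen.

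Cyr61 encodes a secreted CCN protein that binds integrins and is switched on within minutes by growth factors and stretch. The gene, named Ccn1 in current annotation, lies on chromosome 3 from 145646976 to 145649981 on the minus strand (GRCm38). Cyr61 had 86.5 and 67.7 FPKM in Lf-/- mice 1 and 2, against 44.8 and 29.0 FPKM in WT mice 1 and 2. Both Lf-/- mice were above both WT mice, and the genotypes did not overlap. The mean was 77.1 ± 13.4 FPKM in Lf-/- and 36.9 ± 11.1 FPKM in WT (SD, n = 2 each), a ratio of 2.09. This is a log2 difference of 1.07 (SE 0.26, 95% interval 0.39 to 1.74), with an unadjusted p of 0.0103 and an adjusted p of 0.89 by limma. Only 1.46% of the tested genes had a difference of that size in either direction. It was 1.24 without Lf-/- mouse 2, 0.76 without WT mouse 2 and 1.37 without WT mouse 1.

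Ctgf, the CCN relative best known from fibrosis, did not follow Cyr61 in every mouse. It lies on chromosome 10 from 24595442 to 24598683 on the plus strand and is now named Ccn2. Ctgf had 59.5 and 90.9 FPKM in Lf-/- mice 1 and 2, against 60.9 and 64.3 FPKM in WT mice 1 and 2. Lf-/- mouse 1 was the lowest of the 4 and Lf-/- mouse 2 the highest, so the genotypes overlapped. The log2 difference was 0.23 (SE 0.23, 95% interval -0.37 to 0.83, adjusted p = 0.91 by limma), and it was -0.07 without Lf-/- mouse 2. Within a library, Cyr61 stood to Ctgf as 1.46 and 0.744 in Lf-/- mice 1 and 2, and as 0.735 and 0.451 in WT mice 1 and 2. That ratio was close between Lf-/- mouse 2 and WT mouse 1. Of the other CCN genes, Wisp2 had 65.4 and 66.7 FPKM in Lf-/- and 45.95 and 44.1 FPKM in WT (log2 difference 0.54, SE 0.11, adjusted p = 0.89 by limma). Nov and Wisp1 overlapped between genotypes.

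Fibronectin (Fn1), the adhesive glycoprotein that integrins assemble into fibrils, was the member with the smallest p and lay lower in Lf-/- lungs. The gene lies on chromosome 1 from 71585520 to 71653200 on the minus strand. Fn1 had 45.3 and 41.5 FPKM in Lf-/- mice 1 and 2, against 72.4 and 62.3 FPKM in WT mice 1 and 2. Mice of a genotype were close to each other and the genotypes did not overlap. The mean was 43.4 ± 2.69 FPKM in Lf-/- and 67.3 ± 7.17 FPKM in WT (SD, n = 2 each), a ratio of 0.644. On the log2 scale it lay at -0.62 (SE 0.14, 95% interval -0.98 to -0.26), with an unadjusted p of 0.0073 and an adjusted p of 0.89 by limma. Leaving out any 1 library kept it between -0.73 and -0.51.

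Sparc and Cd44 were the other members whose genotypes did not overlap. Sparc (chromosome 11, 55394500 to 55423183, minus strand), a collagen-binding protein of endothelium, fibroblasts and platelets, had 694 and 903 FPKM in Lf-/- mice 1 and 2, against 673 and 548 FPKM in WT mice 1 and 2. Lf-/- mouse 1 and WT mouse 1 were nearly level, and the outer values belonged to the mice numbered 2. Its log2 difference was 0.38 (SE 0.24, 95% interval -0.26 to 1.02, adjusted p = 0.89 by limma), and it was 0.19 without Lf-/- mouse 2. Cd44 (chromosome 2, 102811141 to 102901665, minus strand), the hyaluronan and osteopontin receptor of leukocytes and tumour cells, had 23.6 and 16.8 FPKM in Lf-/- mice 1 and 2, against 26.8 and 27.4 FPKM in WT mice 1 and 2. Lf-/- mouse 2 lay well below Lf-/- mouse 1, and the WT mice were level. The log2 difference was -0.42 (SE 0.19, 95% interval -0.92 to 0.07, adjusted p = 0.89 by limma), and it was -0.19 without Lf-/- mouse 2.

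**Figure D2:**
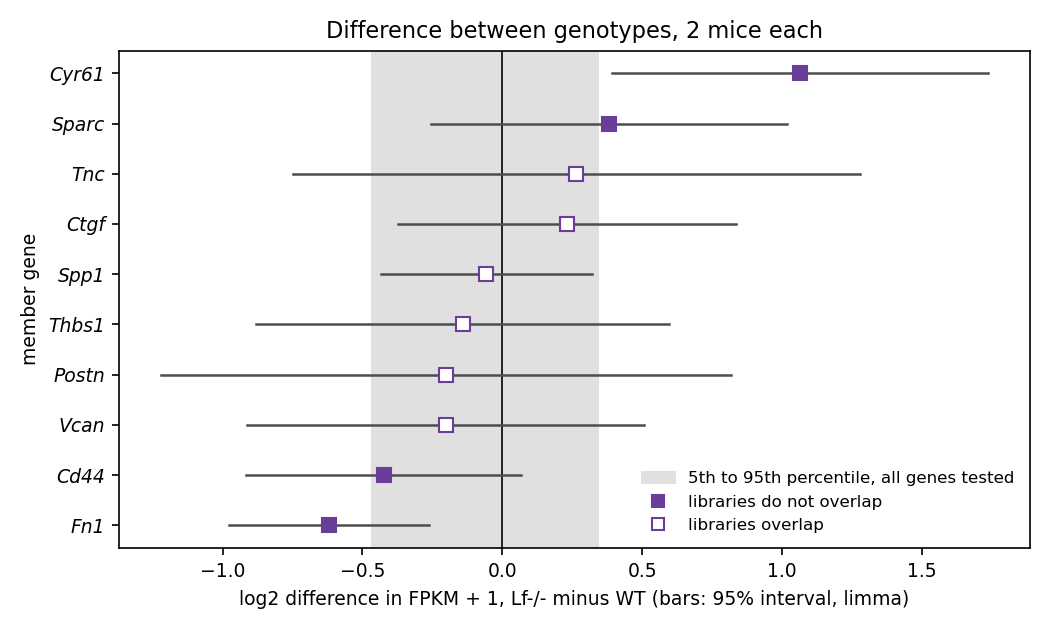
Log2 difference in FPKM + 1, Lf-/- minus WT, for each gene (2 mice per genotype), with limma's 95% interval as a bar, filled squares where the libraries of the genotypes do not overlap, and grey for the 5th to 95th percentile of all genes tested (-0.47 to 0.34). The intervals of Cyr61 (0.39 to 1.74) and Fn1 (-0.98 to -0.26) leave out 0, before adjustment for the number of genes, and the other 8 include it.

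Spp1 varied least. Osteopontin, a phosphoprotein ligand of integrins and CD44 made by macrophages and many tumours, is encoded on chromosome 5 from 104435118 to 104441050 on the plus strand. Spp1 had 92.6 and 79.8 FPKM in Lf-/- mice 1 and 2, against 84.8 and 94.3 FPKM in WT mice 1 and 2. The 4 values lay within 1.18-fold and the genotypes interleaved. The log2 difference was -0.06 with a 95% interval of -0.44 to 0.32 (adjusted p = 0.97 by limma). Within this narrow range, Lf-/- mouse 2, the library low in macrophage markers, had the lowest value, and WT mouse 2, the library with melanocyte genes, the highest.

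The direction of Postn depended on which Lf-/- library was kept. Periostin, a fasciclin-domain protein that links collagen and tenascin in stroma, is encoded on chromosome 3 from 54361109 to 54391037 on the plus strand. Postn had 69.9 and 31.7 FPKM in Lf-/- mice 1 and 2, against 57.8 and 51.1 FPKM in WT mice 1 and 2. The Lf-/- mice were the highest and the lowest of the 4, with the WT mice between them. The log2 difference was -0.20 (SE 0.39, 95% interval -1.22 to 0.82, adjusted p = 0.95 by limma), against 0.36 without Lf-/- mouse 2 and -0.76 without Lf-/- mouse 1.

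Thbs1, Tnc and Vcan shared a split of the libraries that cut across genotype, with Lf-/- mouse 2 and WT mouse 1 above Lf-/- mouse 1 and WT mouse 2. Thbs1 (chromosome 2, 118111876 to 118127133, plus strand), a platelet and stromal protein that activates latent TGF-beta and restrains vessel growth, had 31.5 and 51.2 FPKM in Lf-/- mice 1 and 2, against 50.9 and 38.7 FPKM in WT mice 1 and 2. Tnc (chromosome 4, 63959785 to 64047015, minus strand) had 3.64 and 7.35 FPKM in Lf-/- mice 1 and 2, against 5.66 and 3.03 FPKM in WT mice 1 and 2. Vcan (chromosome 13, 89655312 to 89742509, minus strand), a large proteoglycan that binds hyaluronan, had 0.609 and 1.02 FPKM in Lf-/- mice 1 and 2, against 1.54 and 0.692 FPKM in WT mice 1 and 2. In each gene the genotypes overlapped. Lf-/- mouse 2 stood to Lf-/- mouse 1 as 1.63 for Thbs1, 2.02 for Tnc and 1.67 for Vcan, and WT mouse 2 to WT mouse 1 as 0.76, 0.536 and 0.45 in the same gene order. The log2 differences were -0.14 for Thbs1 (95% interval -0.88 to 0.60), 0.26 for Tnc (-0.75 to 1.28) and -0.20 for Vcan (-0.91 to 0.51), with adjusted p between 0.93 and 0.95 by limma. Vcan lies close to the filter, where the pseudocount of 1 shrinks differences. It was at -0.355 with a pseudocount of 0.1 and at -0.124 after quantile normalization.

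**Figure D3:**
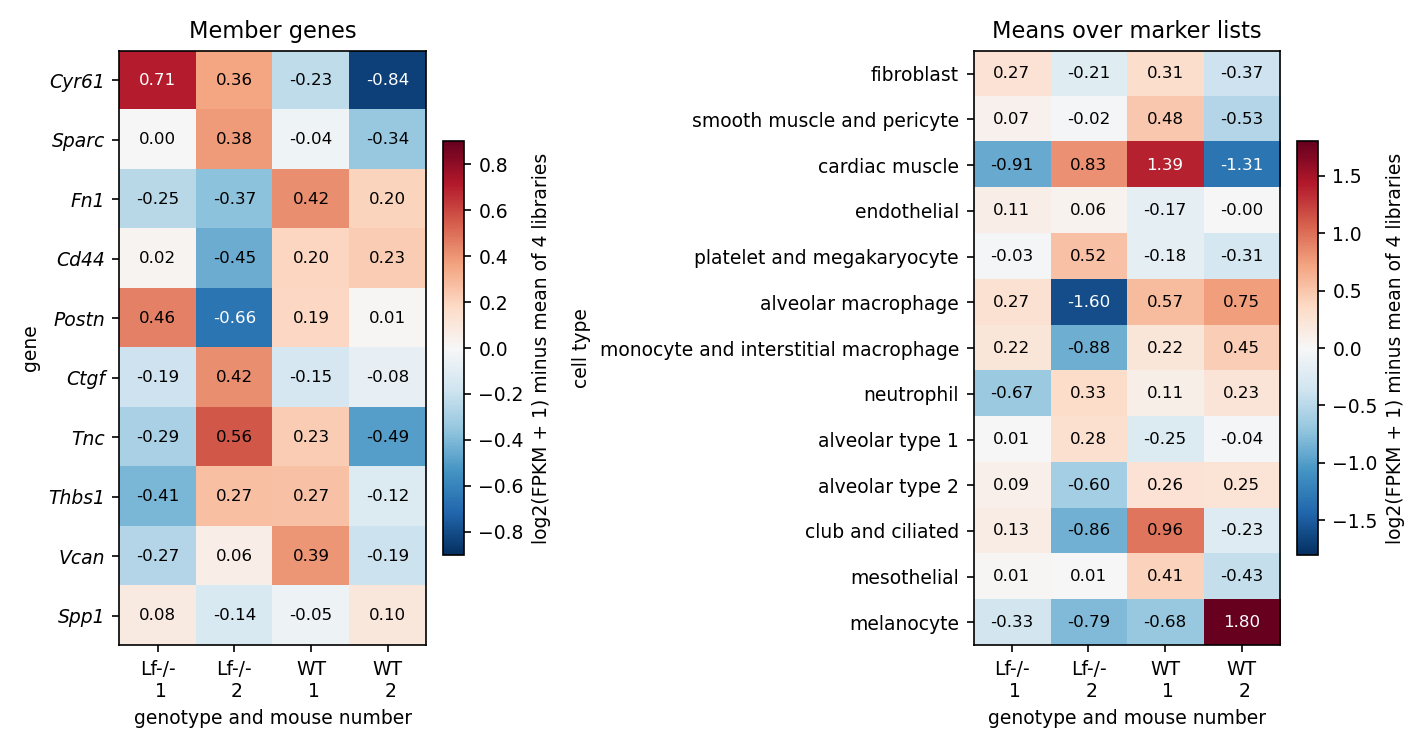
Left, log2(FPKM + 1) of each gene minus its mean over the 4 libraries, with Lf-/- mice in the left columns and WT mice in the right ones. Right, the same quantity averaged over the tested markers of each cell type, on a wider colour scale, where cardiac muscle genes are high in Lf-/- mouse 2 (0.83) and WT mouse 1 (1.39), as Tnc, Thbs1 and Vcan are in the left panel.

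The markers of some cell types had the order of libraries, or the high libraries, of a member. With 4 libraries few orders are possible and the members differ in theirs, so such matches arise easily. The endothelial and alveolar type 1 sums had an order that no member had. Cardiac muscle genes, which mouse lung holds in the walls of its large veins, summed to 337 and 881.5 FPKM over 9 markers in Lf-/- mice 1 and 2, against 1426 and 236 FPKM in WT mice 1 and 2. Their 2 high libraries were the 2 in which Thbs1, Tnc and Vcan were high. Every club and ciliated marker except Scgb1a1 was also highest in these 2 libraries, Tppp3 by a narrow margin. The ciliated cell gene Foxj1 had 30.3 and 70.0 FPKM in Lf-/- mice 1 and 2 and 54.7 and 36.7 FPKM in WT mice 1 and 2. Smooth muscle and pericyte genes summed to 799.8 and 848 FPKM over 11 markers in Lf-/- and to 1257 and 497 FPKM in WT. Of 11 platelet and megakaryocyte markers 10 lay higher in Lf-/-, 8 without overlap, with sums of 64.6 and 105 FPKM in Lf-/- mice 1 and 2 and 59.2 and 49.4 FPKM in WT mice 1 and 2, the same order of libraries as Sparc. Of 13 endothelial markers 12 lay higher in Lf-/-, 6 without overlap, with sums of 2047 and 2198 FPKM in Lf-/- and 1721 and 1932 FPKM in WT. Of 11 alveolar macrophage markers in the files 10 lay lower in Lf-/-, 4 without overlap. Their sums were 512 and 167 FPKM in Lf-/- mice 1 and 2 and 661.5 and 742.5 FPKM in WT mice 1 and 2. The exception, Car4, is also on the endothelial list. It had 72.4 and 98.0 FPKM in Lf-/- mice 1 and 2 and 81.5 and 77.35 FPKM in WT mice 1 and 2. Of 12 monocyte and interstitial macrophage markers 11 lay lower, 7 without overlap, with sums of 485 and 233 FPKM in Lf-/- and 494 and 547 FPKM in WT. The sums of both macrophage lists and of the alveolar type 2 list had the order of libraries of Cd44. Most of each alveolar type 2 sum came from Sftpc, at 21540 and 17190 FPKM in Lf-/- and 20920 and 21590 FPKM in WT. The mean centred log2 value of that list had another order. It was 0.0923 and -0.605 in Lf-/- mice 1 and 2 and 0.263 and 0.25 in WT mice 1 and 2. Of 12 fibroblast markers 6 lay higher and 6 lower, 5 and 1 of them without overlap. Their sums were 3290 and 2626 FPKM in Lf-/- mice 1 and 2 and 2503 and 2096 FPKM in WT mice 1 and 2. These sums had the order of libraries of Cyr61, but most of each came from Inmt. Inmt alone had 2313 and 1851 FPKM in Lf-/- and 1422 and 1374 FPKM in WT. The list's mean centred log2 value had another order, 0.27 and -0.21 in Lf-/- mice 1 and 2 and 0.31 and -0.37 in WT mice 1 and 2. All 10 alveolar type 1 markers lay higher, 5 without overlap, with sums of 3220 and 3944 FPKM in Lf-/- and 2557 and 3033 FPKM in WT. All 10 alveolar type 2 markers lay lower, 7 without overlap, with sums of 27140 and 21100 FPKM in Lf-/- and 27720 and 27980 FPKM in WT. Apart from Scgb1a1, none of these markers was listed at 0 in any library. Over all genes tested, 18.5% lay higher and 17.5% lower without overlap. In bulk tissue, fewer cells of a type and less RNA per cell cannot be told apart, and the part of these cell types in the values of the members was not tested.

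The tested genes with the most similar profile over the 4 libraries differed from member to member. Likeness was taken as the distance between values of log2(FPKM + 1) centred on their mean, and with only 4 libraries many genes come close by it. Nearest to Cyr61 was Fos, the immediate early transcription factor (distance 0.20), with 33.3 and 24.8 FPKM in Lf-/- and 19.4 and 10.3 FPKM in WT, followed by Hs3st1 and the apelin receptor gene Aplnr. Nearest to Fn1 were the myeloid receptor gene Lilrb4a (0.08), the actin-bundling gene Fscn1 and Mmp23, each lower in both Lf-/- mice. Nearest to Cd44 was Ifi30 (0.01), a thiol reductase of antigen-presenting cells, with 80.7 and 57.2 FPKM in Lf-/- and 91.0 and 92.8 FPKM in WT. Nearest to Vcan were Cfap70, Clic6 and Ccdc146, to Thbs1 Ribc1, Fam166b and Fam161a, and to Tnc the simple epithelial keratin gene Krt18, Anapc15-ps and Tctex1d4. Near to Postn were Id2 and Nkain4. Nearest to Ctgf was the stress-induced gene Ppp1r15a (0.05), with 15.95 and 24.1 FPKM in Lf-/- and 16.7 and 17.2 FPKM in WT, and nearest to Sparc and Spp1 were Mrpl27 (0.02) and Kdm3a (0.01).

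Of 20 tested integrins and other matrix receptors, 7 lay higher and 13 lower, 4 and 5 of them without overlap. Over all genes, 18.5% and 17.5% were placed so. None of the 20 passed (1 at an unadjusted p under 0.05, by limma, where 5.11% of all genes lay). The median log2 difference was -0.12, against -0.19 without Lf-/- mouse 1 and -0.036 without Lf-/- mouse 2. Itgb1, the beta chain common to the fibronectin receptors, had 201 and 184.5 FPKM in Lf-/- and 206 and 210.5 FPKM in WT. Itgav, the alpha chain of receptors for the RGD motif, had 8.79 and 9.41 FPKM in Lf-/- and 9.45 and 10.6 FPKM in WT. The smallest p belonged to leukocyte genes. Itgam, the alpha chain of the myeloid receptor Mac-1, had 6.46 and 4.49 FPKM in Lf-/- and 8.26 and 8.29 FPKM in WT, and Itgb2, its beta chain, 40.1 and 14.7 FPKM in Lf-/- and 40.2 and 52.0 FPKM in WT. Stab1, a scavenger receptor that takes up Sparc, had 20.0 and 13.4 FPKM in Lf-/- and 21.6 and 22.6 FPKM in WT. These 3 lay lower in the same mice as the macrophage markers. Cd47, a thrombospondin receptor, had 62.05 and 47.3 FPKM in Lf-/- and 42.4 and 46.5 FPKM in WT.

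Of 15 listed genes of hyaluronan, the ligand of Cd44 and Vcan, only 6 reached the filter and were tested. Of these 6, 3 lay higher and 3 lower. None had an adjusted p under 0.05, and 2 had an unadjusted p under 0.05, by limma. Over all genes tested, 5.11% had an unadjusted p that small. Hyal2, a hyaluronidase, had 34.9 and 38.7 FPKM in Lf-/- and 25.1 and 23.6 FPKM in WT (log2 difference 0.57, SE 0.12, adjusted p = 0.89 by limma). Has1, a hyaluronan synthase, had 1.73 and 0.922 FPKM in Lf-/- and 1.29 and 0.423 FPKM in WT, with overlap. Lyve1, the hyaluronan receptor of lymphatic endothelium and some macrophages, had 83.3 and 113 FPKM in Lf-/- and 134 and 148 FPKM in WT (log2 difference -0.54, SE 0.19, adjusted p = 0.89 by limma). Among 21 tested relatives of the members in the matrix, 9 lay higher and 12 lower, with a median of -0.10 that ran from -0.22 without Lf-/- mouse 1 to 0.15 without Lf-/- mouse 2. None passed (1 at an unadjusted p under 0.05, Wisp2, by limma, where 5.11% of all genes lay). Efemp1, a fibulin, had 81.1 and 65.4 FPKM in Lf-/- and 62.9 and 55.8 FPKM in WT. Tgfbi, which shares the fasciclin domains of periostin, had 39.3 and 19.8 FPKM in Lf-/- and 49.0 and 35.6 FPKM in WT, with Lf-/- mouse 2 lowest as for Postn. Mfap4, a microfibril protein, had 185 and 169 FPKM in Lf-/- and 193 and 255 FPKM in WT, without overlap.

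Of 29 tested genes of the YAP and TAZ pathway, which drives Cyr61 and Ctgf, 19 lay higher and 10 lower, with a median of 0.09. The list mixes parts of the pathway with its targets, so these counts do not measure the targets alone. Without overlap were 7 higher and 1 lower, where 18.5% and 17.5% of all genes were placed so. None passed (2 at an unadjusted p under 0.05, by limma, where 5.11% of all genes lay). The targets Amotl2 (55.5 and 55.2 FPKM in Lf-/-, 44.5 and 40.6 FPKM in WT) and Ajuba (18.9 and 20.7 FPKM in Lf-/-, 16.6 and 12.5 FPKM in WT) lay higher in both Lf-/- mice. The stress gene Gadd45b did too, with 55.5 and 75.6 FPKM in Lf-/- and 46.6 and 45.7 FPKM in WT. Other targets lay lower by their means, with overlap. Axl had 41.7 and 15.8 FPKM in Lf-/- and 38.5 and 41.5 FPKM in WT. Fstl1 had 35.4 and 30.7 FPKM in Lf-/- and 49.95 and 34.0 FPKM in WT. Yap1 and Wwtr1, which encode YAP and TAZ, overlapped between genotypes. Ankrd1, a further target that is also a cardiac gene, had 19.0 and 82.9 FPKM in Lf-/- mice 1 and 2 and 73.2 and 12.5 FPKM in WT mice 1 and 2, high in the same libraries as the cardiac markers. The list's median was -0.001 without WT mouse 1, with 14 higher and 15 lower.

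Of 24 tested genes of TGF-beta signalling, an inducer of Fn1, Postn and Ctgf, 12 lay higher and 12 lower, with a median of -0.0005. None of the 24 passed (1 at an unadjusted p under 0.05, by limma, where 5.11% of all genes lay). Without Lf-/- mouse 1 there were 8 higher and 16 lower (median -0.07), and without Lf-/- mouse 2 there were 15 higher and 9 lower (median 0.11). Id3, a target of the BMP branch, had 211 and 173 FPKM in Lf-/- and 142 and 129 FPKM in WT. Skil, a feedback inhibitor of the TGF-beta branch, had 9.35 and 7.75 FPKM in Lf-/- and 10.0 and 13.1 FPKM in WT. The ligands Tgfb1, Tgfb2 and Tgfb3 overlapped between genotypes.

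Of 22 tested immediate early genes, a class that responds fast to growth factors and to handling of tissue and to which Cyr61 belongs, 15 lay higher and 7 lower, with a median of 0.30 against -0.005 over all genes, and none passed (7 at an unadjusted p under 0.05, all higher, by limma). Without overlap were 12 higher and 1 lower. Over all genes, 18.5% were higher and 17.5% lower without overlap, and 2.55% were higher at an unadjusted p under 0.05. Fosb had 1.72 and 1.92 FPKM in Lf-/- and 0.959 and 0.997 FPKM in WT. Ier3, an early gene of stress signalling, had 194 and 163 FPKM in Lf-/- and 123 and 125 FPKM in WT, and Jun, a subunit of AP-1, 139 and 143 FPKM in Lf-/- and 108 and 109 FPKM in WT. Egr1 had 22.02 and 13.1 FPKM in Lf-/- and 10.7 and 5.82 FPKM in WT, the order of mice seen for Cyr61 and Fos. The list's median stayed between 0.20 and 0.36 when any 1 library was left out. Times between death and freezing are not in the labels.

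**Figure D4:**
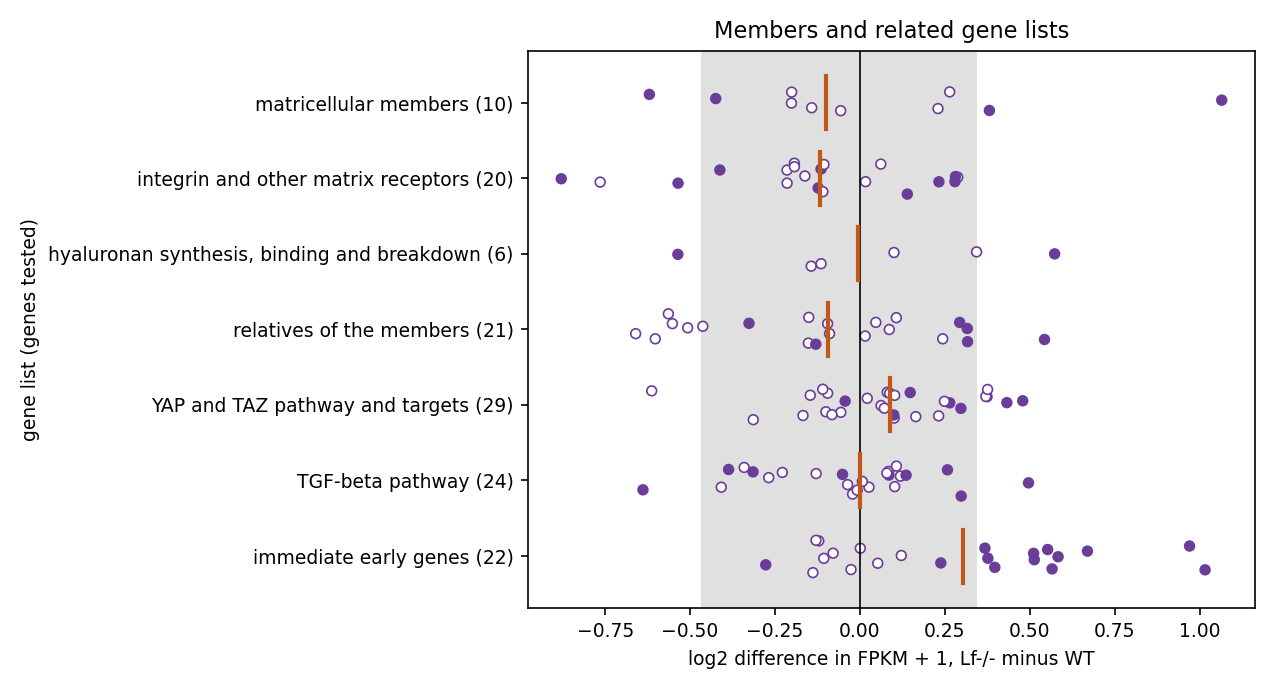
Log2 difference in FPKM + 1, Lf-/- minus WT, for each tested gene of the members and of 6 related lists (1 point per gene, filled where the genotypes do not overlap, orange line at the list's median), with grey for the 5th to 95th percentile of all genes tested. Immediate early genes have the highest median (0.30) of the lists drawn, and Cyr61 is the point farthest to the right among the members (1.07).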

How the data were processed

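Per the file headers, each file gives 1 FPKM value per gene symbol. The FPKM values were deposited by the authors, and the submitters' processing notes name TopHat, Cufflinks, HTSeq, DESeq and GRCm38 without a role or version. No source used here gives the annotation, the strand setting or any scaling. Fn1, Tnc, Thbs1 and Ctgf share exon sequence with an annotated gene on the opposite strand and Spp1 with a gene on the same strand, and none of these 5 neighbours is in the files, so reads of both could be joined. FPKM gives no counts, so no counting interval is given.

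Repeated symbols (46 extra entries) were summed. Genes with at least 1 FPKM in at least 2 libraries were compared as log2(FPKM + 1), a scale that understates changes of low genes, with limma 3.58.1 in R 4.3.3 (lmFit, eBayes with a mean-variance trend, 2 residual and 2.62 prior degrees of freedom), a design holding genotype alone, and p-values adjusted by Benjamini-Hochberg over all 12573 genes, at 0.05. The step was tested on simulated data. Exact permutation of 2 against 2 libraries, two-sided, gives no p below 0.333 and was not used. Positions come from GENCODE vM21 (GRCm38), with Cyr61 and Ctgf matched by older symbol. Promoter sequences come from RefSeq (GRCm38.p6).

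The members and lists were chosen with earlier results of these data known, so no p was adjusted over a list. Named besides the members were the 3 genes of smallest p in each list, the 3 nearest in profile to each member, Ltf and 4 Y-linked genes. A few genes that this rule names are not reported here. Others (Scgb1a1, Scgb3a2, Cyp2f2, Foxj1, Car4, Inmt, Sftpc, Tppp3, Itgb1, Itgav, Cd47, Tgfbi, Nov, Wisp1, Yap1, Wwtr1, Axl, Fstl1, Ankrd1, Tgfb1, Tgfb2, Tgfb3 and Egr1) were named after their values were seen or for their role. Cell type markers were summed in FPKM. Varied in turn were the pseudocount (0.1, 0.5), the filter (none, or mean FPKM from 5 up), the scaling (median ratio, quantile), the variance prior (constant, or robust), the threshold (0.1), a replicate block by mouse number, and the omission of each library. Software was Python 3.11.15 with pandas 2.3.3, numpy 2.4.6 and, for drawing, matplotlib 3.10.9.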

Additional observations from a re-analysis of the deposited data

How the results depend on the processing

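With 2 mice per genotype, no member passed under any alternative (smallest adjusted p 0.45, for Postn without Lf-/- mouse 1, by limma), while Cyr61 and Fn1 kept an unadjusted p under 0.05 in each. The differences of Cyr61, Sparc, Fn1 and Cd44 had the same sign in all 14 alternatives. In these members the genotypes did not overlap, so leaving out 1 library could not change the sign. None of the members changed sign under another pseudocount or scaling. Another filter, another prior or a replicate block leaves the difference itself as it is, so the sign was fixed there. Leaving out 1 library changed the sign of the other 6. Postn ran from -0.759 (without Lf-/- mouse 1) to 0.357 (without Lf-/- mouse 2), Tnc from -0.16 to 0.688 (negative without either mouse numbered 2), and Spp1 from -0.163 to 0.0496 (positive likewise). Vcan ran from -0.494 (without WT mouse 2) to 0.0912 (without WT mouse 1), Thbs1 from -0.484 to 0.2 (positive without either mouse numbered 1), and Ctgf from -0.0723 (without Lf-/- mouse 2) to 0.532. Tnc and Vcan fall under a mean FPKM of 5 and have no value there.

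Over all genes tested, 3 passed, of which the 2 higher in Lf-/- were the Y-linked Eif2s3y and Ddx3y. Under the other pseudocounts, scalings and priors, a mean FPKM of at least 5 and a threshold of 0.1, 2 to 3 genes passed. With no filter 0 passed (887 at an unadjusted p under 0.05, by limma). Leaving out a library gave 0 to 1 calls (447 to 1041 at an unadjusted p under 0.05), and where that left a lone mouse it was assumed to vary like the other genotype. With the mouse number as a replicate block 0 genes passed (418 at an unadjusted p under 0.05). Same-numbered mice did not deviate together (r = -0.34 across genes), so the number does not pair them. A crossed pairing, chosen after seeing the data, gave 4 calls. Quantile normalization moved the genes at an unadjusted p under 0.05 to 423 higher and 257 lower, against 320 and 322 without it, and the non-overlapping genes to 2903 higher and 1687 lower, against 2320 and 2204. The cause was not tested. The count of non-overlapping members was 4 under either other scaling, and which members these were was not listed.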
